A study of Rattus norvegicus with 6 samples.

Results

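The genes described here are the cyclin-dependent kinase (CDK) inhibitors Cdkn1a, Cdkn1b, Cdkn1c, Cdkn2a, Cdkn2b and Cdkn2c, the D-type cyclins Ccnd1, Ccnd2 and Ccnd3, and their kinase partner Cdk4, in neonatal kidneys of the Han:SPRD Cy rat. The members are the probes whose gene name in the array files is 1 of these 10 symbols. They are 10 of the 35561 gene names (symbols or accessions) on the array and number 17 probes on 35 spots, of 41012 probes on 43379 spots. All 17 remained among the 30911 probes kept after dim probes were removed. The set was chosen by the Cdkn1c values, which were low on the Cy/+ arrays, so the Cy/+ ratios of these genes are given as a description with no test.

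Han:SPRD rats carrying the Cy allele develop polycystic kidney disease, severe in homozygotes and slower in heterozygotes. The groups were Cy/Cy, Cy/+ and +/+ rats of 7 and 3 days of age, and RNA of the left kidney was pooled within each genotype and age. How many animals entered a pool is not given in the sources used here. Each of the 6 arrays carried 1 named pool in Cy5 and the +/+ pool of the same age in Cy3, so every array measured a log2 ratio to an age-matched +/+ reference, and no array had the dyes swapped. All arrays of 1 age shared a slide and each genotype kept 1 position, so age and slide, and genotype and position, cannot be told apart. In the genotype comparisons the 2 ages served as the repeats, with no separate pools behind them. The p-values against the reference rest on how far the 2 ages of a genotype lie apart, pooled over Cy/Cy and Cy/+. Those of the fit over 6 arrays with a term for age rest on how unequally the genotypes change with age. Those of 7 against 3 days rest on how unequally the pools change with age. Each fit also draws its spread in part from all probes.

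The 2 arrays labelled +/+ stood apart, although both of their channels are labelled +/+ kidney. Of the probes kept, 14.7% at 7 days and 18.6% at 3 days differed at least 2-fold between their channels, against 0.0582% and 0.0939% on the Cy/Cy arrays and 0.388% and 0.913% on the Cy/+ arrays. The median Cy5 over Cy3 ratio of 9 skeletal muscle probes there was 4.33 at 7 days and 4.60 at 3 days on the log2 scale, that of 16 liver probes was 4.39 and 4.89, and that of 12 proximal tubule probes was -2.67 and -3.03. These Cy5 samples are therefore called the arrays labelled +/+, and results that rest on them are set beside results from the Cy3 reference. All 16 podocyte and all 27 G1/S probes were well above background in both channels of every array, and no member signal was saturated.

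D-type cyclins bind Cdk4 and Cdk6, and the complex phosphorylates the retinoblastoma protein, which lets a cell leave G1 and copy its DNA. Inhibitors of the INK4 group (Cdkn2a, Cdkn2b, Cdkn2c) bind Cdk4 and Cdk6 directly, while those of the Cip/Kip group (Cdkn1a, Cdkn1b, Cdkn1c) bind a wider range of cyclin-CDK complexes. In the developing kidney, Cdkn1c, which encodes p57Kip2, is known as a protein of podocytes that have left the cell cycle, and the gene is imprinted and expressed from the maternal allele.

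Because Cdkn1c is the gene the set was chosen by, and the INK4 genes are close relatives whose probes could share sequence, the designed probe sequences of both are shown, written 5′ to 3′. Capitals mark the longest run shared by the Cdkn2a and Cdkn2b probes.
Cdkn1c, A_44_P374620: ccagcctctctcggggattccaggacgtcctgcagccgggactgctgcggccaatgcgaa
Cdkn1c, A_44_P374618: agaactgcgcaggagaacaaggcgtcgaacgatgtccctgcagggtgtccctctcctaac
Cdkn2a, A_44_P395885: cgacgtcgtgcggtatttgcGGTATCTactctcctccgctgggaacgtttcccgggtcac
Cdkn2b, A_44_P313507: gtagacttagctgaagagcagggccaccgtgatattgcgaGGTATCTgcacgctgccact
Cdkn2c, A_43_P13144: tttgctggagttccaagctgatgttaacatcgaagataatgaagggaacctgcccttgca

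The longest run common to the Cdkn2a and Cdkn2b probes is 7 bases, and each shares at most 6 bases with the Cdkn2c probe, so these 60-base probes have no long stretch in common. The 2 Cdkn1c probes shown also share at most 7 bases with each other and read different parts of the transcript. In the rat build rn3 that the array files use, the Cdkn1c probes lie on the minus strand at chr1:203990145-203990204 (A_44_P374620), chr1:203989517-203989576 (A_44_P374618) and chr1:203988794-203988853 (A_42_P799390). For the remaining Cdkn1c probe, A_44_P223978, the file gives only 26 bases, chr1:203988641-203988666. The INK4 probes lie on the minus strand at chr5:108916026-108916085 (Cdkn2a), chr5:108946651-108946710 (Cdkn2b) and chr5:131018328-131018387 (Cdkn2c). The files do not say which exon or untranslated region a probe lies in. The Ccnd3 probe is placed on chromosome 8 by the array files, whereas RefSeq's GRCr8 annotation has Ccnd3 on chromosome 9.

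Cdkn1c was the member with the lowest ratios on the Cy/+ arrays, and it was low there on all 4 of its probes at both ages, while the Cy/Cy arrays lay on either side of their reference. On probe A_44_P374618 the log2 ratio to the +/+ reference was -0.47 at 7 days and -0.06 at 3 days on the Cy/Cy arrays, -1.17 and -1.22 on the Cy/+ arrays, and -0.32 and -1.52 on the arrays labelled +/+. On probe A_44_P374620 it was -0.45 at 7 days and 0.01 at 3 days on the Cy/Cy arrays, -1.09 and -1.04 on the Cy/+ arrays, and -0.33 and -1.38 on the arrays labelled +/+. The 2 Cy/+ arrays were thus below both Cy/Cy arrays, and the array labelled +/+ of 3 days was lower still. On A_44_P223978, the brightest, it was -0.24 at 7 days and 0.41 at 3 days on the Cy/Cy arrays, -1.22 and -1.02 on the Cy/+ arrays, and -0.28 and -1.26 on the arrays labelled +/+. On A_42_P799390 it was 0.08 at 7 days and 0.31 at 3 days on the Cy/Cy arrays, -0.69 and -0.91 on the Cy/+ arrays, and 0.39 and -1.20 on the arrays labelled +/+. The Cy/Cy and Cy/+ arrays did not overlap on any of the 4 probes, where 35.5% of all probes did not overlap, and nothing is read from this because the Cy/+ values chose the set.

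Averaged over the ages, Cdkn1c was 2.28-fold lower than its reference on Cy/+ arrays by A_44_P374618, 2.18-fold by A_44_P223978, 2.09-fold by A_44_P374620 and 1.74-fold by A_42_P799390. Cdkn1c accounts for each of the 3 member probes that were at least 2-fold lower on the Cy/+ array of 7 days and each of the 3 on that of 3 days, where 0.136% and 0.236% of all probes were that low. The limma fit of Cy/+ against its reference called 8.09% of all probes at an adjusted p under 0.05, which is printed as the background and not read against the members. Cy/Cy minus Cy/+ differences on the 4 probes ran from 0.64 to 0.98 at 7 days and from 1.05 to 1.43 at 3 days, on the log2 scale.

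**Figure D1:**
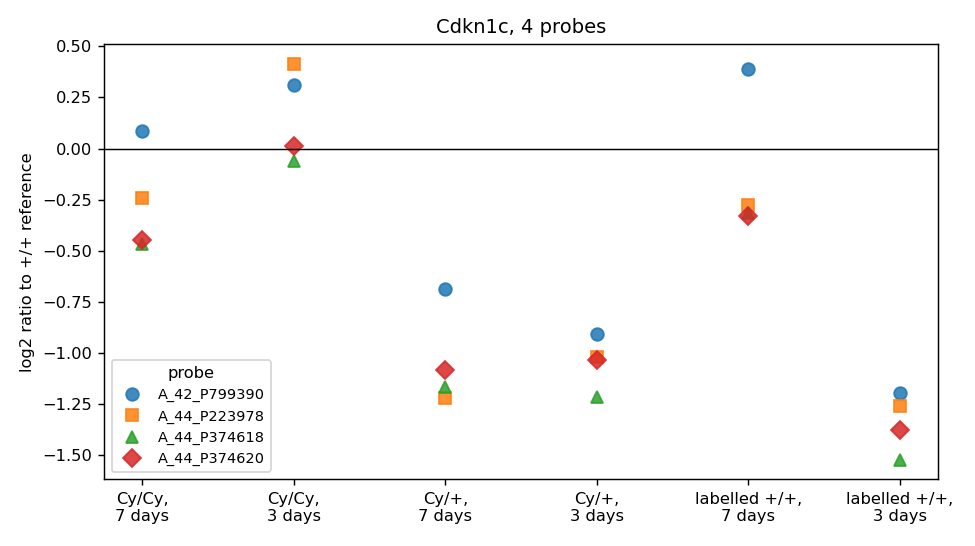
Log2 ratio of the Cy5 pool to the age-matched +/+ reference (Cy3) for the 4 Cdkn1c probes on each of the 6 arrays, 1 point per probe and array. All Cy/+ points lie between -0.69 and -1.22, below every Cy/Cy point, while the arrays labelled +/+ differ widely between 7 and 3 days.

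The size of the Cdkn1c value depends on the correction for dye and brightness. The Cdkn1c probes were among the brightest on the arrays, at the 98.1 to 99.8 percentiles of mean brightness, and on the Cy/+ arrays the loess curve took 0.75 to 0.97 off their log2 ratios. With the median of each array as the only correction, the Cy/+ means were -0.41 for A_44_P374618, -0.25 for A_44_P374620, -0.18 for A_44_P223978 and 0.07 for A_42_P799390, with the median of all probes at 0.19. With the log ratios that the scanner software computed, the Cy/+ means were -1.18, -1.10, -1.26 and -0.98 for the same probes. The mean difference of Cy/Cy minus Cy/+ was 0.93, 0.85, 1.21 and 1.00 for the same probes after loess and 0.81, 0.72, 1.06 and 0.87 with median centring.

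Podocytes are a cell type in which Cdkn1c protein is known to be made. The 16 probes of other podocyte genes had median ratios, in log2, of -0.05 at 7 days and -0.14 at 3 days on the Cy/Cy arrays and -0.16 and -0.32 on the Cy/+ arrays, while the median of all probes was at most 0.01. Nphs1, the slit diaphragm protein nephrin, was at -0.12 at 7 days and -0.27 at 3 days on the Cy/Cy arrays and at -0.42 and -0.74 on the Cy/+ arrays. Wt1, a transcription factor of podocytes and their precursors, was at 0.01 at 7 days and 0.02 at 3 days on the Cy/Cy arrays and at 0.01 and -0.10 on the Cy/+ arrays. Among lists of other cell types, the thick ascending limb median was -0.07 at 7 days and -0.15 at 3 days on the Cy/Cy arrays and -0.16 and -0.55 on the Cy/+ arrays. The erythroid median was -0.17 at 7 days and -0.32 at 3 days on the Cy/Cy arrays and -0.29 and -0.49 on the Cy/+ arrays. The adipose median was 0.29 at both ages on the Cy/Cy arrays and 0.37 at 7 days and 1.05 at 3 days on the Cy/+ arrays, and the skeletal muscle median was -0.60 at 7 days and 0.07 at 3 days on the Cy/Cy arrays and -0.76 and 0.08 on the Cy/+ arrays. Other lists lay nearer 0 or on either side of it on the Cy/+ arrays. At 7 and 3 days the collecting duct median there was -0.04 and -0.11, and the endothelial median 0.14 and -0.02. The stroma median was -0.09 and 0.15 and the macrophage median -0.10 and 0.19. The liver median was 0.02 and 0.24 and the proximal tubule median 0.33 and -0.08. The part of podocyte or other cell content in the Cdkn1c ratio was not tested, and in such pools fewer cells of a type and less RNA per cell cannot be told apart. Under median centring the podocyte median relative to all probes was 0.16 at 7 days and 0.02 at 3 days on the Cy/Cy arrays and 0.09 and -0.02 on the Cy/+ arrays, so its sign depends on the brightness correction.

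The named genes whose 6 log2 ratios lay nearest to those of the brightest Cdkn1c probe, by Euclidean distance, were Armh4 (distance 0.81), Cabp1 (1.02), Spink1l (1.06), Epha3 (1.06) and Kdm6b (1.07). Armh4 had a ratio, in log2, of -0.02 at 7 days and -0.01 at 3 days on the Cy/Cy arrays, -0.78 and -0.92 on the Cy/+ arrays, and -0.73 and -1.33 on the arrays labelled +/+. These genes were picked for their likeness over 6 arrays, so the values describe that choice.

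Cdkn1a, which encodes p21, a p53-induced inhibitor, was near its reference on both mutant genotypes and highest on the arrays labelled +/+. Its main probe, A_44_P914438, is printed on 10 spots. The log2 ratio was 0.25 at 7 days and -0.03 at 3 days on the Cy/Cy arrays, 0.26 and 0.07 on the Cy/+ arrays, and 1.35 and 1.07 on the arrays labelled +/+. The SD over the 10 spots of an array was between 0.021 and 0.043. A second, dim Cdkn1a probe, A_44_P515275, was at 0.21 at 7 days and 0.13 at 3 days on the Cy/Cy arrays, 0.15 and 0.26 on the Cy/+ arrays, and 0.51 and 0.62 on the arrays labelled +/+. It was not well above background in Cy3 on 2 of the arrays of 7 days.

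Cdkn1b, which encodes p27Kip1, gave different values on its 2 probes. A_43_P11268, printed on 10 spots, had ratios, in log2, of 0.03 at 7 days and 0.03 at 3 days on the Cy/Cy arrays, -0.02 and 0.17 on the Cy/+ arrays, and 0.16 and 0.41 on the arrays labelled +/+. A_44_P508264 had -0.32 at 7 days and 0.00 at 3 days on the Cy/Cy arrays, -0.46 and -0.38 on the Cy/+ arrays, and 0.05 and 0.23 on the arrays labelled +/+. Only the second probe was low on both Cy/+ arrays. In rn3 both lie on the plus strand, at chr4:172091286-172091345 and chr4:172090371-172090430.

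Among the INK4 genes, Cdkn2a and Cdkn2b were too dim in kidney RNA for a ratio on the mutant arrays. Neither probe was well above background in Cy5 of the Cy/Cy arrays, nor in Cy3 of any array but that labelled +/+ of 3 days. The Cdkn2b log2 ratio was -0.08 at 7 days and -0.07 at 3 days on the Cy/Cy arrays, 0.03 and 0.31 on the Cy/+ arrays, and 1.70 and 2.16 on the arrays labelled +/+. The Cdkn2a log2 ratio was -0.12 at 7 days and 0.00 at 3 days on the Cy/Cy arrays, 0.11 and 0.11 on the Cy/+ arrays, and 0.42 and 0.30 on the arrays labelled +/+. On the mutant arrays these ratios have a signal near background in Cy3, and in Cy/Cy in both channels, so they give no fold.

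Cdkn2c, which encodes p18INK4c, was well above background on every array and was the inhibitor with the highest Cy/+ ratios. Its log2 ratio was 0.10 at 7 days and 0.14 at 3 days on the Cy/Cy arrays, 0.42 and 0.60 on the Cy/+ arrays, and 0.67 and 0.79 on the arrays labelled +/+. The 3 pairs of arrays did not overlap, which was so for 20.1% of all probes, and the mean Cy/+ value was 1.43-fold its reference.

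Ccnd1, the D-type cyclin induced by growth factor signals, was at or above its reference on the mutant arrays and far below it on the arrays labelled +/+. Probe A_44_P189299 had ratios, in log2, of -0.04 at 7 days and 0.38 at 3 days on the Cy/Cy arrays, 0.21 and 0.32 on the Cy/+ arrays, and -1.37 and -1.36 on the arrays labelled +/+. Probe A_44_P411505 had -0.07 at 7 days and 0.57 at 3 days on the Cy/Cy arrays, 0.10 and 0.51 on the Cy/+ arrays, and -1.497 and -1.416 on the arrays labelled +/+. On both probes the mutant arrays of 3 days were above those of 7 days, and the Cy/Cy and Cy/+ arrays overlapped.

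Ccnd2, another D-type cyclin, had ratios, in log2, of 0.03 at 7 days and 0.16 at 3 days on the Cy/Cy arrays, -0.32 and 0.16 on the Cy/+ arrays, and 0.50 and 0.90 on the arrays labelled +/+. Ccnd3 had 0.18 at 7 days and -0.10 at 3 days on the Cy/Cy arrays, 0.03 and -0.10 on the Cy/+ arrays, and 1.07 and 0.29 on the arrays labelled +/+. For both genes the Cy/Cy and Cy/+ arrays overlapped and the arrays labelled +/+ were the highest. Cdk4, the kinase that the D-type cyclins activate, had ratios, in log2, on A_44_P388777 of -0.24 at 7 days and -0.08 at 3 days on the Cy/Cy arrays, -0.21 and -0.37 on the Cy/+ arrays, and -0.60 and -0.73 on the arrays labelled +/+. On A_44_P388782 it had -0.05 at 7 days and 0.03 at 3 days on the Cy/Cy arrays, -0.06 and -0.23 on the Cy/+ arrays, and -0.51 and -0.60 on the arrays labelled +/+. Both Cdk4 probes gave the same order of the arrays labelled +/+ below all mutant arrays.

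**Figure D2:**
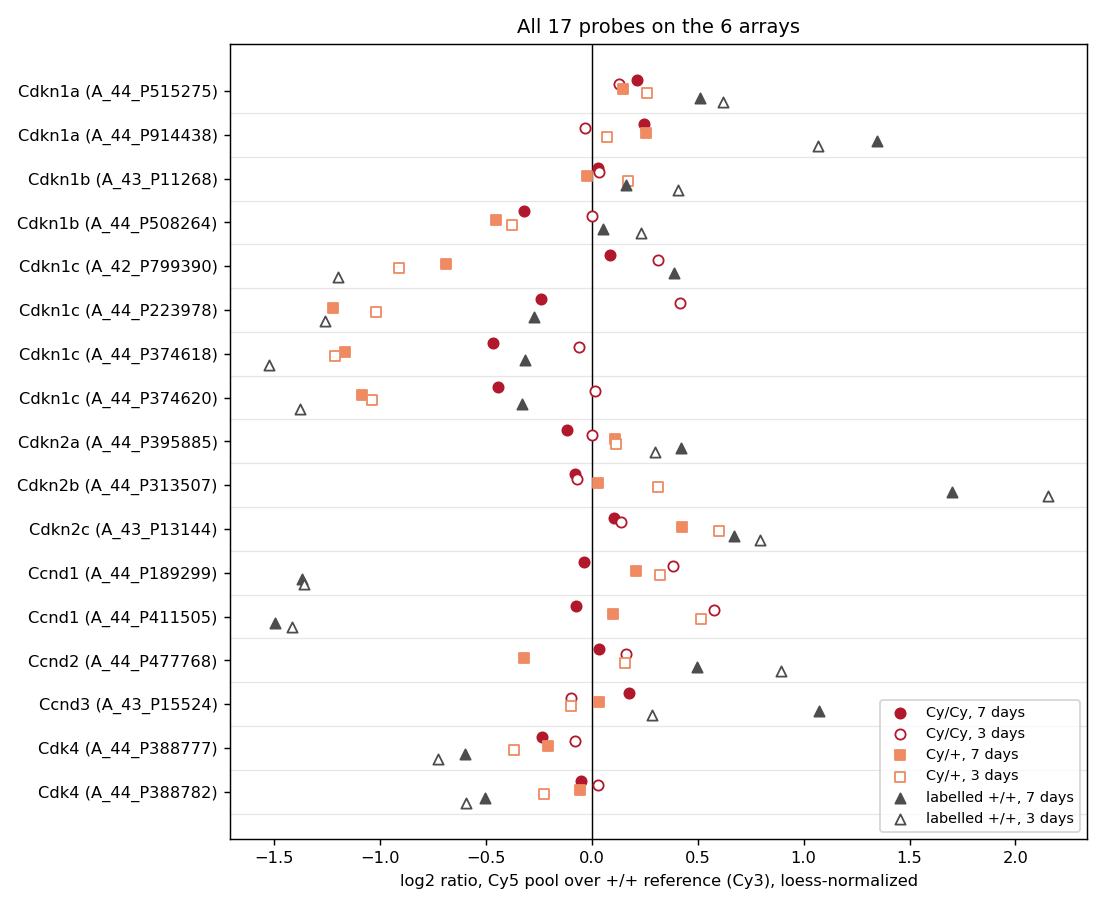
Log2 ratio of the Cy5 pool to the age-matched +/+ reference for all 17 probes, 1 row per probe, with filled symbols for 7 days and open symbols for 3 days. Cy/Cy points lie between -0.47 and 0.57, the Cy/+ points of Cdkn1c lie to the left, and the arrays labelled +/+ lie far from 0 for Cdkn1a, Cdkn2b and Ccnd1.

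Whether the homozygous kidneys differed from their own +/+ reference was tested with limma on the 4 mutant arrays, each genotype mean against 0. None of the 17 member probes passed an adjusted p under 0.05, the lowest being 0.560 for Cdkn1c A_44_P374618 at a log2 ratio of -0.27 ± 0.11 (SE, 2 arrays, both below 0). At an unadjusted p under 0.05 that was also the 1 member probe. The test called 0.00648% of all probes, 2 of 30882, with 2666 at an unadjusted p under 0.05. Member means ran from -0.27 to 0.25, with a median of 0.04 against 0.01 for all probes, and the 95% intervals of all member probes lay between -0.52 and 0.64. Under median centring, which raised the median of all probes to 0.17, 13243 probes and 15 of the 17 member probes were called, so this result rests on the brightness correction.

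Cy/Cy kidneys were also set against the arrays labelled +/+ with a term for age, using the 6 arrays. The inhibitors Cdkn1a (on 1 of its 2 probes), Cdkn2b and Cdkn2c and the cyclin Ccnd2 were lower in Cy/Cy, and Ccnd1 and Cdk4 were higher. Of the 17 member probes, 4 passed as higher and 4 as lower, against 10.6% of all probes higher and 18.4% lower, so a large part of the array differed. Ccnd1 was higher by 1.54 ± 0.14 (SE) on A_44_P189299 with a limma adjusted p of 0.00140, and by 1.71 ± 0.17 on A_44_P411505 with 0.00157, with 2 of 2 Cy/Cy arrays above both arrays labelled +/+. Cdk4 was higher by 0.54 ± 0.12 on A_44_P388782 (limma adjusted p = 0.0279) and by 0.50 ± 0.13 on A_44_P388777 (limma adjusted p = 0.0435). Cdkn1a A_44_P914438 fell by 1.099 on the log2 scale, with an SE of 0.11 and a limma adjusted p of 0.00196. The other Cdkn1a probe, A_44_P515275, was at -0.39 with a limma adjusted p of 0.0662 and did not pass.

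Cdkn2b fell by 2.003 on the log2 scale in the same fit, with an SE of 0.15 and a limma adjusted p of 0.000650. Since Cdkn2b was not well above background in Cy/Cy, the size of its fold is uncertain. In Cy5 it measured 4.11-fold lower in Cy/Cy than on the arrays labelled +/+. The Cy5 means behind this value were 6.34 in Cy/Cy and 8.38 on the arrays labelled +/+, in log2 units. Cdkn2a, also not well above background in Cy/Cy, measured 1.24-fold lower in Cy5, and its limma adjusted p was 0.0578. Cdkn2c fell by 0.61 on the log2 scale (SE 0.12, limma adjusted p = 0.0148) and Ccnd2 fell by 0.60 (SE 0.14, limma adjusted p = 0.0269).

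These differences did not pass when Cy/Cy was set against the Cy3 reference of the same age and label. There, the Cy/Cy means of Ccnd1 were 0.17 and 0.25, those of Cdk4 were -0.01 and -0.16, and those of Cdkn1a A_44_P914438, Cdkn2c and Ccnd2 were 0.11, 0.12 and 0.10. Muscle, liver and tubule probes differed between the arrays labelled +/+ and their reference as given above, and the part of that in the member values was not tested. On single arrays labelled +/+, the member probes at least 2-fold higher than the reference numbered 3 at 7 days (Cdkn1a, Cdkn2b, Ccnd3) against 10.9% of all probes. They numbered 2 at 3 days (Cdkn1a, Cdkn2b) against 14.1%. Those at least 2-fold lower numbered 2 at 7 days (both Ccnd1 probes) against 3.76%, and 6 at 3 days (both Ccnd1 and all 4 Cdkn1c probes) against 4.48%.

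The Cdkn1c probes did not pass in the comparison with the arrays labelled +/+, at 0.60 to 0.86 with limma adjusted p between 0.161 and 0.344, and the 2 arrays labelled +/+ differed widely from each other. Without the one of 7 days, the 4 probes were higher in Cy/Cy by 1.29 to 1.57. Without the one of 3 days they were between -0.19 and 0.15, and Ccnd3 had a log2 difference of -0.93. Each of these fits keeps 1 array labelled +/+ and holds no spread between such arrays, so only the sizes are given. The calls for Cdkn2c, Ccnd2 and both Cdk4 probes were lost when arrays were scaled to each other. They were also lost when either Cy/Cy array was left out, which leaves 1 Cy/Cy array. With the software's log ratios Cdkn2c was at -0.38 (limma adjusted p = 0.122) and Ccnd2 at -0.44 (limma adjusted p = 0.103), so these calls were lost there too. Without the age term Ccnd2 did not pass, with a limma adjusted p of 0.0882, and Cdkn2a passed, with 0.0467. The Cdk4 A_44_P388777 call was lost without the array labelled +/+ of 3 days as well, at 0.44.

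Levels at 7 days were compared with those at 3 days within each pool, over the Cy/Cy pool, the Cy/+ pool and the +/+ reference, with pool as a block. The reference value of an age was the mean Cy3 of the Cy/Cy and Cy/+ arrays of that age. The pools were thus read on the same arrays and are not independent, although the fit treats them as separate values. Cdkn1c was lower at 7 days on 3 of its 4 probes and 1 Cdkn1b probe was higher. On Cdkn1c A_44_P374618 the log2 level was 14.51 at 7 days and 15.23 at 3 days in the Cy/Cy pool, 13.87 and 14.29 in the Cy/+ pool, and 15.01 and 15.40 in the reference. Each pool was lower at 7 days, although the levels of the 2 ages overlapped between pools. It fell by 0.51 (SE 0.088, limma adjusted p = 0.0295). A_42_P799390 fell by 0.49 (SE 0.092, limma adjusted p = 0.0340) and A_44_P374620 fell by 0.41 (SE 0.082, limma adjusted p = 0.0374).

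The brightest Cdkn1c probe, A_44_P223978, had a difference of -0.31 ± 0.12 (SE) and a limma adjusted p of 0.133. The difference was -0.60 in the Cy/Cy pool and -0.31 in the Cy/+ pool but -0.02 in the reference. The same reference RNA of 3 days gave it 16.43 to 17.38 on 3 arrays, and that of 7 days 16.49 to 16.81, so repeats of 1 pool spread by as much as the change. The 3 called probes share this limit in part. Their reference of 3 days ran from 15.42 to 15.92 on A_44_P374620, 16.03 to 16.47 on A_42_P799390 and 15.29 to 15.66 on A_44_P374618. The Cdkn1c calls were lost without the Cy/Cy array of 7 days, at -0.39 to -0.34 with adjusted p from 0.0556 to 0.0892, and that of A_44_P374620 also without the Cy/+ array of 3 days, at -0.31 with 0.0599. They were lost too with the software's signals and with the mutant pools alone.

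Cdkn1b A_44_P508264 had a log2 level of 10.70 at 7 days and 10.23 at 3 days in the Cy/Cy pool, 10.54 and 9.86 in the Cy/+ pool, and a change of 0.78 in the reference. It was higher at 7 days in all 3 pools, by 0.65 ± 0.082 on average (SE, limma adjusted p = 0.0202). The other Cdkn1b probe, A_43_P11268, differed by -0.08 in the Cy/Cy pool, -0.33 in the Cy/+ pool and -0.10 in the reference, with a mean of -0.17 ± 0.078 and a limma adjusted p of 0.199. The 2 differences thus had opposite signs, and the age change of the gene as a whole is uncertain.

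Over the 17 member probes, 1 passed as higher at 7 days, against 5.48% of all probes, and 3 as lower, against 4.32%. Cdk4 A_44_P388777 was higher at 7 days by 0.16 in the Cy/Cy pool, 0.51 in the Cy/+ pool and 0.34 in the reference, with a limma adjusted p of 0.0632. Cdkn1a A_44_P914438 was lower by 0.27 on average (log2 difference -0.27, limma adjusted p = 0.0833). The 3 D-type cyclins did not pass, with mean differences between -0.12 and 0.32.

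**Figure D3:**
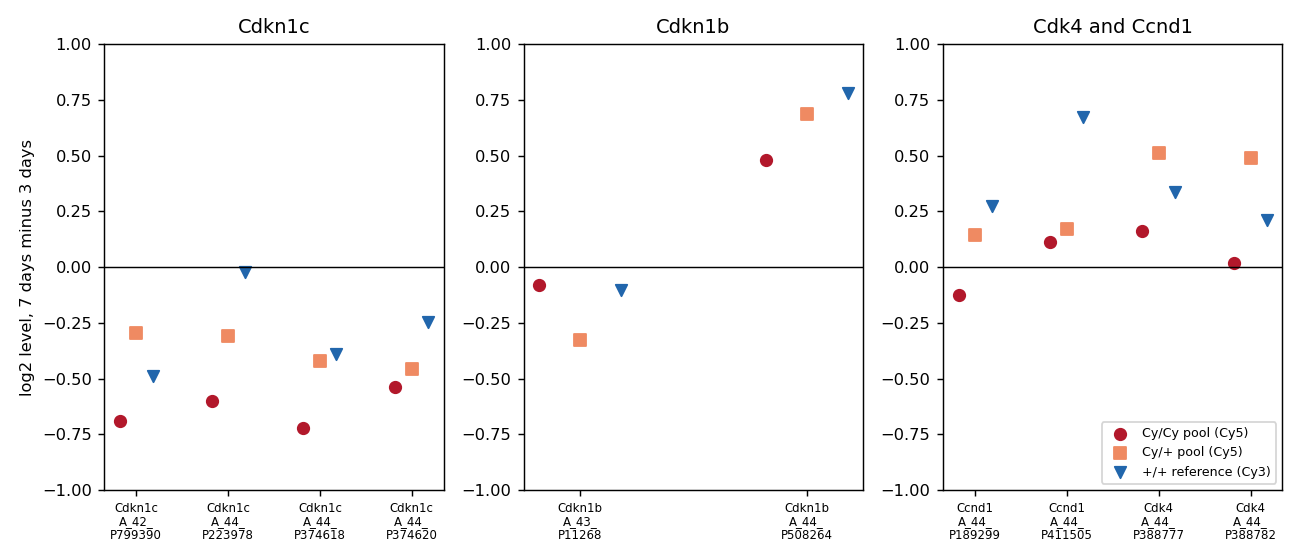
Log2 level at 7 days minus that at 3 days for the Cdkn1c, Cdkn1b, Ccnd1 and Cdk4 probes, 1 point each for the Cy/Cy pool (Cy5), the Cy/+ pool (Cy5) and the +/+ reference (Cy3, mean of 2 arrays). All Cdkn1c points lie below 0, from -0.72 to -0.02, and the 2 Cdkn1b probes lie on opposite sides of 0.

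Genes that act after the G1 decision were followed through a list of replication and mitosis genes, 33 probes of 22 genes. Their median log2 ratio was 0.07 at 7 days and 0.30 at 3 days on the Cy/Cy arrays and 0.29 and 0.44 on the Cy/+ arrays, against medians of at most 0.01 for all probes. None passed in Cy/Cy against its reference, where their median was 0.19 against 0.01 for all probes. At 7 days against 3 days 20 of the 33 passed as higher and 0 as lower, against 5.48% of all probes higher and 4.32% lower, with a median of 0.43 against 0.01 for all probes. Aurkb, a mitotic kinase, was higher at 7 days by 0.77 ± 0.076 (SE, limma adjusted p = 0.0171) on A_44_P533786 but by 0.04 on A_43_P21748. Bub1b, a spindle checkpoint kinase, was higher by 0.69 ± 0.073 (limma adjusted p = 0.0182) and Plk1, another mitotic kinase, by 0.64 ± 0.085 (limma adjusted p = 0.0210).

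The G1/S list, 27 probes of 18 genes that promote or restrain the step from G1 to S phase, had smaller medians. Its median log2 ratio was 0.05 at 7 days and 0.08 at 3 days on the Cy/Cy arrays and 0.11 and 0.25 on the Cy/+ arrays. At 7 days against 3 days 6 of the 27 passed as higher and 0 as lower, against 5.48% of all probes higher and 4.32% lower. Ccne1, the cyclin that acts with Cdk2 at the start of S phase, was higher by 0.84 ± 0.096 (limma adjusted p = 0.0186) on A_44_P507571. E2f1, a transcription factor released by the retinoblastoma protein, was higher by 0.43 ± 0.072 (limma adjusted p = 0.0285) on A_44_P807777. On the other E2f1 probe, A_44_P349002, the difference was 0.22 (limma adjusted p = 0.147) and did not pass. In Cy/Cy against the arrays labelled +/+, 3 probes of the 27 passed as higher and 2 as lower, against 10.6% of all probes higher and 18.4% lower. Among them was Cdkn2d, the remaining INK4 inhibitor, which fell by 1.03 on the log2 scale (limma adjusted p = 0.00746). In Cy/Cy against its own reference Cdkn2d was at 0.09, with a limma adjusted p of 0.899.

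Of the p53 targets, the family in which Cdkn1a is counted, 15 probes had medians of -0.04 at 7 days and -0.01 at 3 days on the Cy/Cy arrays and 0.00 and -0.04 on the Cy/+ arrays. None passed in Cy/Cy against its reference. Of 14 probes of imprinted growth genes, a class that includes Cdkn1c, the medians were 0.06 at 7 days and 0.12 at 3 days on the Cy/Cy arrays and 0.08 and -0.05 on the Cy/+ arrays. By age, 1 of the 14 passed as higher at 7 days and 1 as lower, against 5.48% of all probes higher and 4.32% lower. The higher was Igf2, the imprinted growth factor which lies in the same imprinted chromosome region as Cdkn1c, at 0.71 ± 0.11 (limma adjusted p = 0.0260). The lower was Sgce, at -0.30 (limma adjusted p = 0.0440). Relative to all probes, the replication and G1/S medians stayed above 0 on all 4 mutant arrays under the software's ratios and scaling. Under median centring they were above 0 too, but so were the p53 medians, at 0.15 to 0.27, and the imprinted medians, at 0.22 to 0.35. Nothing particular to the replication and G1/S lists is therefore read from median centring. The p53 medians did not keep their sign.

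**Figure D4:**
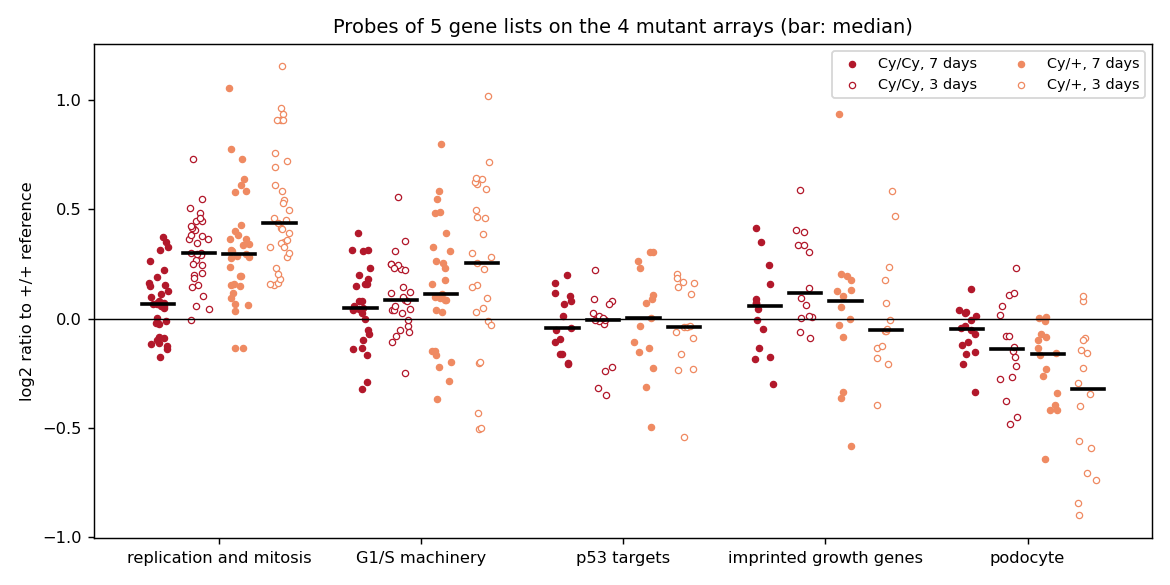
Log2 ratios to the +/+ reference of the probes of 5 gene lists on the 4 mutant arrays, 1 point per probe, with bars at the medians. The replication and mitosis medians are 0.07 and 0.30 in Cy/Cy and 0.29 and 0.44 in Cy/+ at 7 and 3 days, while the podocyte medians are below 0, which they are not under median centring.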

How the data were processed

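2-colour Agilent rat arrays were scanned and read by Agilent Feature Extraction 9.5.1.1, per the file headers, with probe coordinates on rn3. The deposited files give, per spot, the mean and background intensity and the software's processed intensity of each dye, and a log10 ratio of Cy5 over Cy3. Each deposited ratio comes with a p-value of the scanner software, which was not used for calls. The deposited matrix of the series holds the same log10 ratios (largest difference 0).

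Mean signals were background-corrected (normexp, offset 50) and loess-normalized within arrays in limma 3.58.1 (R 4.3.3, data.table version 1.17.8), with levels per dye after Aquantile scaling. Control and outlier spots were left out, and probes had to be well above background on 2 arrays. Spots of a probe were averaged, and probes of a gene were kept apart. Calls used lmFit and eBayes with Benjamini-Hochberg adjusted p under 0.05 over all probes, and intervals are 95%. Each fit had 2 residual degrees of freedom, and their number limits the precision. All 17 member probes matched RefSeq by accession. In simulated data with 200 changed probes, at log2 sizes of 1 and 2, the fits recovered 100% of them. They also called 28 to 35 unchanged probes. The simulated noise was independent between values, whereas the pools of the age fit share arrays.

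Members and gene lists were chosen with earlier results of these data known. All member probes are named. From each list up to 3 genes with the lowest adjusted p in a direction could be named; Nphs1 and Wt1 were picked as podocyte markers after their values were seen. Alternatives were median centring, the software's ratios or signals, scaling between arrays, no dim-probe filter, the brightest probe per gene, all 6 arrays together, a reference over 3 arrays, and leaving out each array. A fit of age over the mutant pools alone, and one of Cy/Cy against the arrays labelled +/+ with no age term, were added after seeing the data.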

Additional observations from a re-analysis of the deposited data

Results flagged for a closer look

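In 8 cases both arrays of 1 group lay above their +/+ reference and both arrays of another lay below it. The values given for them are log2 ratios averaged over the ages. Such opposite signs were found for 5.3% of all probes between Cy/Cy and Cy/+, 18.3% between Cy/Cy and the arrays labelled +/+, and 20.4% between Cy/+ and the arrays labelled +/+, against 3, 2 and 3 of the 17 member probes. Cdkn1c A_42_P799390 was 0.20 in Cy/Cy and -0.80 in Cy/+, a difference of 1.00. Nothing is read from this case because the Cy/+ values of Cdkn1c chose the set. Cdkn2a was -0.06 in Cy/Cy and 0.11 in Cy/+, a difference of -0.17, and Cdkn2b was -0.08 in Cy/Cy and 0.17 in Cy/+, a difference of -0.25. Against 0.36 and 1.93 on the arrays labelled +/+, the Cy/Cy values of Cdkn2a and Cdkn2b differed by -0.42 and -2.003. For Cdkn2a and Cdkn2b the Cy/Cy signals were not well above background, so their signs there carry no information. The counts of 3 and 2 that involve Cy/Cy are therefore not read against their shares.

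Cdkn1b A_44_P508264 was -0.42 in Cy/+ and 0.14 on the arrays labelled +/+, a difference of -0.56. Ccnd1 was 0.27 in Cy/+ and -1.37 on the arrays labelled +/+ on A_44_P189299, a difference of 1.63, and 0.31 and -1.46 on A_44_P411505, a difference of 1.76. The differences between Cy/Cy and Cy/+ and between Cy/+ and the arrays labelled +/+ were not tested.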

How the results depend on the processing

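Median centring called 13243 probes in Cy/Cy and 15380 in Cy/+ against their references, where loess gave 2 and 2497, and raised the medians of all probes to 0.17 and 0.19. In Cy/Cy it turned Cdkn1a A_44_P515275 to -0.056, Cdkn1b A_44_P508264 to 0.20, Cdkn1c A_44_P374618 to 0.40 and A_44_P374620 to 0.47, and Cdk4 A_44_P388777 to 0.32 and A_44_P388782 to 0.46. The software's log ratios gave 0 calls in Cy/Cy and 0 in Cy/+ by limma, with 2602 and 7787 probes at an unadjusted p under 0.05, and turned Cdkn1c A_44_P223978 to -0.092 and Cdkn2b to 0.094 in Cy/Cy. Scaling between arrays left 925 calls in Cy/+, and fitting all 6 arrays left 0 in Cy/Cy, with 1076 at an unadjusted p under 0.05. Against the arrays labelled +/+, the software's ratios called 11460 probes, 55.7% of them higher in Cy/Cy, where loess called 8946 with 36.5% higher.

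By age, the software's signals gave 0 calls (9106 at an unadjusted p under 0.05) and Ccnd3 at 0.034, and the mutant pools alone gave 0 calls (4719) and Ccnd2 at -0.024, where loess over 3 pools gave 3024 calls. The directions of Cdkn1c by age stayed negative in all of these. Leaving out 1 array gave 0 to 74 calls in Cy/Cy and 842 to 3280 in Cy/+ against their references, 3169 to 11513 in Cy/Cy against the arrays labelled +/+, and 1933 to 8456 by age.

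Leaving out 1 array also turned members whose ages differed in sign. In Cy/Cy against its reference the ranges were -0.243 to 0.415 for Cdkn1c A_44_P223978, -0.446 to 0.014 for A_44_P374620, -0.037 to 0.381 and -0.074 to 0.574 for the Ccnd1 probes, -0.032 to 0.246 for Cdkn1a A_44_P914438, -0.321 to 0.0018 for Cdkn1b A_44_P508264, -0.101 to 0.176 for Ccnd3 and -0.052 to 0.030 for Cdk4 A_44_P388782. Against the arrays labelled +/+ they were -0.193 to 1.398 for Cdkn1c A_42_P799390, -0.037 to 1.347 for A_44_P374618 and -0.013 to 1.291 for A_44_P374620. By age they were -0.165 to 0.093 for Cdkn2b and -0.047 to 0.177 for Cdkn1a A_44_P515275. The cause of these changes was not tested, apart from fewer arrays in a fit.

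The replicate numbers stand for ages. Cy/Cy against the arrays labelled +/+ had age, and so the replicate number, as a block; with no replicate block, an alternative chosen after seeing the data, 8309 probes were called against 8946, Ccnd2 lost its call (limma adjusted p = 0.0882) and Cdkn2a gained one (0.0467). The age fit has pool as a block, and the ratios to the reference are already within an age. Each group rests on 2 arrays of pooled RNA with no dye swap, so dye bias of single probes stays in every ratio, and Cdkn2a and Cdkn2b are limited by background. Differences between animals cannot be seen in pools.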
